A study of Homo sapiens with 14 samples.

Results

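The joint effect of EZH2 depletion and of MYC guides on the transcriptome of MV4;11 cells was read gene by gene from RNA-seq libraries of both perturbations. Each gene with a row in both deposited MV4;11 tables carried an shEZH2 effect (shEZH2 minus EV) and an sgcMyc effect (mean of sgRNA 1 and sgRNA 5 minus sgEV). Genes called in both comparisons were then sorted by their directions into 4 classes. The tables shared 15081 rows, 15025 of them beside 56 spike-in RNAs, and 13230 genes had enough counts to be tested in both. Of these, 1922 were called in both comparisons and form the classes. MV4;11 is an established human line from an acute myelomonocytic leukaemia with a KMT2A fusion. The groups were shEZH2 (labelled as depletion of EZH2), EV (its control), sgcMyc_1 and sgcMyc_5 (labelled as knockout of cMyc by independent sgRNAs) and sgEV (their control), with 2 libraries each. EOL-1, an established eosinophilic leukaemia line, was used for a further reading with sgEZH2 and its own sgEV, also 2 libraries each. All cells, controls included, had received doxycycline at 1 µg/ml for 4 days. Separate cultures are not stated for the 2 libraries of a group, nor whether a line was a clone, so p-values cover the spread between the sequenced libraries alone, and that spread may be technical. The series asks how EZH2 and cMyc act on shared genes, and the comparison addresses which transcripts responded to both and in which directions.

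EZH2 is the catalytic subunit of Polycomb repressive complex 2 (PRC2), which methylates histone H3 and keeps developmental genes silent. It is also known to take part in gene activation outside PRC2 in some cancers. MYC is a transcription factor that binds E-box DNA together with MAX and is known for driving ribosome production, amino acid and lipid synthesis, and proliferation in leukaemia, while it holds back differentiation. PRC2 loss and MYC loss are both known to let myeloid leukaemia cells mature in some settings.

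The targeted transcripts were read first. EZH2 had 9.75 and 9.70 CPM in shEZH2 libraries, against 73.3 and 75.8 CPM in EV libraries (log2 fold change -2.94 ± 0.07, adjusted p = 2.8e-09). CPM is the count scaled to a common library size, log2 fold changes stand with the standard error of edgeR's quasi-likelihood test, and a gene was called at an adjusted p under 0.05. MYC had 866 and 872 CPM with guide 1 and 818 and 822 CPM with guide 5, against 658 and 660 CPM in sgEV libraries (0.36 ± 0.04, adjusted p = 1.3e-05). The MYC transcript was thus higher in the libraries labelled sgcMyc. A cut by Cas9 need not lower a transcript, so this value does not check the label, and every direction below rests on the labels of these libraries. MYC was also higher with shEZH2, at 681 and 689 CPM against 573 and 583 CPM in EV (0.25 ± 0.04, adjusted p = 5.7e-04). EZH2 had 46.8, 47.1, 48.8 and 48.7 CPM in the libraries labelled sgcMyc, against 56.2 and 52.8 CPM in sgEV (-0.19 ± 0.06, adjusted p = 0.018), a call that was lost without either sgEV library or without either guide 1 library, with guide 5 alone (adjusted p = 0.077), with DESeq2 (0.16) and with spike-in scaling (-0.07, adjusted p = 0.55).

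The shEZH2 and EV libraries held 15034533 to 16274568 gene counts and the sgcMyc and sgEV libraries 13313052 to 15043385, with a further 1.06 to 1.30% in spike-in RNAs. Replicates differed by more than sampling noise (chi-square per degree of freedom 1.44 to 5.82, highest with guide 5). Some defining transcripts of this line and lineage were present: FLT3 at 394 to 711 CPM, CD33 at 67.5 to 103 CPM and SPI1 at 205 to 279 CPM. Other myeloid markers were low, with MPO at 4.27 to 12.4 CPM and ITGAM at 0.553 to 12.7 CPM, and the monocyte marker CD14 has no row. Of unlike cell types, CD3E, MS4A1, HBB, EPCAM and COL1A1 have no row in the MV4;11 tables analysed here. B cell markers summed to 2.66 to 5.98 CPM. Few other markers of unlike cell types had a row, and some of their sums moved with the groups. Epithelial and stromal markers summed to 92.5 and 93.4 CPM with shEZH2 against 144 and 133 CPM in EV, and to 285 to 314 CPM with the guides against 193 and 189 CPM in sgEV. T and NK cell markers summed to 37.1 and 39.8 CPM with shEZH2 against 53.5 and 57.3 CPM in EV, and to 62.9 to 68.6 CPM with the guides against 85.8 and 90.3 CPM in sgEV. Erythroid and megakaryocyte markers summed to 9.59 and 11.3 CPM with shEZH2 against 16.9 and 17.7 CPM in EV, and to 33 to 47 CPM with the guides against 42.2 and 38.5 CPM in sgEV, and mast cell and basophil markers stayed under 10 CPM in every library. Their part in the results was not tested. In bulk RNA, fewer cells of a kind and less RNA per cell cannot be told apart. No control library was shared between the 2 comparisons, while both guides shared sgEV.

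Of the genes tested in both, shEZH2 was called higher in 1782 (13.5%) and lower in 1908 (14.4%), and sgcMyc was called higher in 2502 (18.9%) and lower in 2491 (18.8%). The classes held 454 genes higher in both (3.43%), 592 lower in both (4.47%), 399 higher with shEZH2 and lower with sgcMyc (3.02%), and 477 lower with shEZH2 and higher with sgcMyc (3.61%). The genes lower in both made up 31.0% of the genes lower with shEZH2 and 23.8% of those lower with sgcMyc, and those higher in both made up 25.5% and 18.1% of the corresponding lists. Directions over all 13230 genes, called or not, were spread almost evenly, with 3299, 3325, 3344 and 3262 genes in the same order of classes and 50.1% of the same sign. Across genes, which are not independent replicates, the 2 effects had a Pearson r of 0.122 and a Spearman rho of 0.0534. Among the 1922 genes called in both, 1046 (54.4%) went the same way.

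Larger effects went the same way more often. When genes called in both were grouped by the smaller of their 2 absolute log2 fold changes, 40.9% of 494 genes under 0.2 had the same direction, 49.1% of 528 genes from 0.2 to 0.3, and 57.4% of 477 genes from 0.3 to 0.5. The share was 73.1% of 309 genes from 0.5 to 1 and 74.6% of 114 genes of at least 1. In that last range, at least 2-fold in both comparisons, lay 64 genes lower in both, 21 higher in both, 14 higher with shEZH2 and lower with sgcMyc, and 15 with the reverse. These size ranges were chosen after the data were seen.

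**Figure D1:**
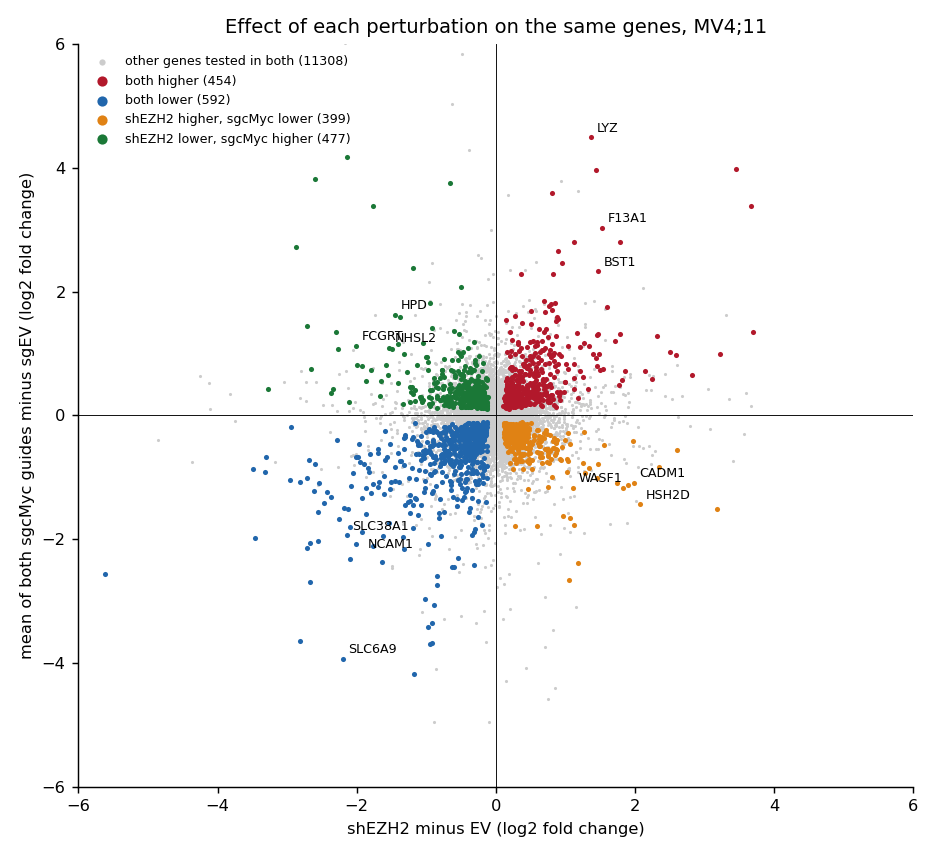
Log2 fold change of every gene tested in both comparisons, with shEZH2 minus EV on the x axis and the mean of both guides minus sgEV on the y axis; each point is a gene and colour marks the 4 classes. Past 2-fold in both, 64 genes lie in the lower left quadrant and 14 or 15 in each opposite-direction quadrant; 19 genes, 4 of them class members, lie outside the axes.

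The difference between the 2 effects was tested itself, in 1 fit over the 10 MV4;11 libraries: it was called higher with shEZH2 than with sgcMyc in 2154 genes (16.3%) and lower in 2451 (18.5%). In the opposite-direction classes all 399 and all 477 members passed this test, which the choice of members fixes. Among the same-direction classes, the sizes of the effects differed for 169 of 454 genes higher in both and for 214 of 592 lower in both. A call in a single comparison did not always come with a difference: of 1768 genes called only with shEZH2, 1135 (64.2%) passed the test of the difference, and of 3071 called only with sgcMyc, 1856 (60.4%) did.

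Lipid synthesis led the genes lower in both. Of 24 cholesterol synthesis genes tested, 20 were lower in both and none fell in another class, beside 4.47% of all genes tested. Their median log2 fold change was -0.41 with shEZH2 and -0.52 with sgcMyc, against medians near 0 over all genes. CYP51A1, the sterol demethylase, had 60 and 59.4 CPM with shEZH2, against 126 and 120 CPM in EV. In the guide libraries CYP51A1 had 186, 172, 166 and 165 CPM, against 267 and 274 CPM in sgEV. The groups did not overlap in either comparison, and CYP51A1 was lower by 1.05 ± 0.05 and by 0.65 ± 0.04 on the log2 scale (difference adjusted p = 1.9e-04). Such a lack of overlap was the rule for genes called in both. It held for 98.2 to 98.8% of members across the 4 classes, against 37.2% of all genes tested in both. Early and late enzymes were among the 20, from HMGCS1 (-0.41 and -1.02) through SQLE (-0.39 and -0.53) and LSS (-0.79 and -0.64) to DHCR7 (-0.27 and -0.93). SREBF2, which encodes the factor that switches these enzymes on, was lower by 0.60 and 0.31. The other 4 members were PMVK (-0.06 and 0.30), NSDHL (-0.16 and -0.27), HSD17B7 (-0.02 and -0.69) and SC5D (-0.05 and -0.50). The count was 18 of 24 with scaling to the spike-in RNAs.

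Fatty acid synthesis showed the same pattern, with 11 of 12 tested genes lower in both (medians -0.32 and -0.53) and 7 of 12 with spike-in scaling. SCD, the desaturase that makes oleate, had 434 and 421 CPM with shEZH2, against 711 and 657 CPM in EV. With the guides SCD had 698, 700, 697 and 631 CPM, against 1120 and 1140 CPM in sgEV. The desaturase FADS2 had 133 and 132 CPM with shEZH2 against 259 and 251 CPM in EV, and 263 to 276 CPM with the guides against 458 and 465 CPM in sgEV. Both genes were separated by group in every library. SREBF1 (-0.79 and -0.28), FASN (-0.20 and -0.52), ACACA (-0.25 and -0.56) and ACLY (-0.31 and -0.45) were in the same class, and ACSL3 was the exception (0.12 and -0.13).

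A sterol element, the sequence read by SREBP factors, was searched in the promoters of these genes because they moved together. With the letters TCACNCCAC on either strand, it occurred in 396 of 35116 RefSeq promoters (1.13%; GRCh38.p14, 250 bases before to 50 after each start). Among promoters of genes tested in both, the share was 0.984%. SREBF2 itself held a match 133 bases before its start, printed with 14 bases on each side at chr22:41832958-41832994, + strand, with the element in capitals.
SREBF2: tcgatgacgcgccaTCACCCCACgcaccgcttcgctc
None of the promoters of the 11 fatty acid synthesis genes with an entry held these letters. SREBF2 was the only 1 of the 18 cholesterol synthesis genes with an entry that held them; 6 of the 24 had no entry.

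Genes of amino acid supply formed the second block lower in both, with a far larger effect of the guides. The controls themselves were unlike for several of these genes, with sgEV the higher. Mean levels in EV and sgEV were 276 and 561 CPM for ATF4. They were 164 and 418 CPM for the serine enzyme PHGDH, and 4.77 and 19.8 CPM for the glycine transporter SLC6A9. Control levels were not tested against each other, and their part in the larger guide effect was not tested. ATF4 is the transcription factor of the integrated stress response, and its known targets make, import and charge amino acids. Of 18 genes of the ATF4 response tested, 9 were lower in both and none was in another class (medians -0.22 with shEZH2 and -1.60 with sgcMyc). ATF4 had 223 and 226 CPM with shEZH2, against 265 and 287 CPM in EV. With the guides ATF4 had 154, 160, 151 and 165 CPM, against 565 and 558 CPM in sgEV. ATF4 was thus lower by 0.30 and by 1.83 on the log2 scale. ASNS, asparagine synthetase, had 38.3 and 37.5 CPM with shEZH2 against 74.0 and 69.6 CPM in EV. ASNS had 17.1 to 20.7 CPM with the guides against 190 and 188 CPM in sgEV (-0.92 ± 0.06 and -3.35 ± 0.06). The difference between the effects was called for 15 of the 18 genes, all with the sgcMyc effect the lower, as for DDIT4 (0.20 and -3.13), which was not called with shEZH2. With DESeq2 the count lower in both was 5 of 18.

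The serine pathway behaved likewise for its 3 enzymes. PHGDH, the first enzyme, had 82.8 and 87.5 CPM with shEZH2, against 161 and 168 CPM in EV. With the guides PHGDH had 28.4, 31.0, 33.5 and 36.9 CPM, against 415 and 421 CPM in sgEV. PHGDH was lower in every library of both perturbations (-0.95 ± 0.05 and -3.69 ± 0.05, difference adjusted p = 1.7e-12). PSAT1 (-0.84 and -2.74) and PSPH (-0.38 and -1.49) followed, as did the mitochondrial folate enzyme MTHFD2 (-0.14 and -1.40). In all, 5 of 19 serine and one-carbon genes were lower in both, 3 of 19 with spike-in scaling or without either shEZH2 library. Among 18 amino acid transporters 6 were lower in both. SLC6A9, the glycine transporter GLYT1, had 1.18 and 0.88 CPM with shEZH2 against 5.12 and 4.43 CPM in EV. With the guides SLC6A9 had 1.00 to 1.56 CPM against 20.7 and 18.9 CPM in sgEV (-2.20 ± 0.25 and -3.93 ± 0.16). SLC38A1, a glutamine transporter, had 1.61 and 2.64 CPM with shEZH2 against 9.92 and 8.86 CPM in EV, and 12.3 to 14 CPM with the guides against 53.1 and 49.8 CPM in sgEV. The cystine carrier SLC7A11 (-1.60 and -1.26) and the glutamine carrier SLC1A5 (-0.44 and -1.21) were also lower in both. SLC7A5, the large neutral amino acid carrier, was instead higher with shEZH2 (0.27) and lower with sgcMyc (-1.78).

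Of 20 cytosolic aminoacyl-tRNA synthetases, which charge tRNAs for translation, 10 were lower in both and 2, DARS and FARSB, were higher with shEZH2 and lower with sgcMyc. Without shEZH2 library 2, 6 were lower in both. AARS had 220 and 213 CPM with shEZH2, against 299 and 292 CPM in EV, and 209 to 213 CPM with the guides, against 525 and 523 CPM in sgEV (-0.45 ± 0.04 and -1.31 ± 0.04). By the test of the difference, the sgcMyc effect was the lower for 17 of the 20 and the higher for none. The letters TGATGNAA, the core of the composite element bound by ATF4, occurred on either strand in 1270 of 35116 promoters (3.62%). Among promoters of genes tested in both, they occurred in 254 of 13720 (1.85%). They occurred in 4 of 26 promoters of the ATF4 response (16 of 18 genes with an entry) and in 5 of 28 promoters of amino acid transporters (15 of 18 genes). By gene, 33.3% of transporters with an entry held a match, but only 6.67% held one wholly before the start. For the ATF4 response both shares were 25%. Below, matches lower in both are shown 5′ to 3′ on the strand of the gene, with the element, or its reverse complement, in capitals. ASNS lies at chr7:97872455-97872490 (- strand), CHAC1, a glutathione-degrading enzyme, at chr15:40953248-40953283 (+ strand), ATF3 at chr1:212565202-212565237 (+ strand), AARS at chr16:70289672-70289707 (- strand) and SLC1A5 at chr19:46784890-46784925 (- strand).
ASNS: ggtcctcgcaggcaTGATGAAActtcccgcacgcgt
CHAC1: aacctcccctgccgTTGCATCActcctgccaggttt
ATF3: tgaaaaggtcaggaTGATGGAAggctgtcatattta
AARS: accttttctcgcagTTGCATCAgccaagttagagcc
SLC1A5: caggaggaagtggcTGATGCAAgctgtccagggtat
A match is a description of these letters and not evidence of binding. The effects of these 5 genes were -0.92, -0.98, -0.80, -0.45 and -0.44 with shEZH2 and -3.35, -3.42, -1.36, -1.31 and -1.21 with sgcMyc, in the order of the lines.

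Interferon-stimulated genes, which encode antiviral and guanylate-binding proteins, contributed 12 of 38 tested members to the genes lower in both (medians -0.46 and -0.21), with 1 higher in both (TRIM22) and 1 lower with shEZH2 and higher with sgcMyc (BST2). The count was 7 with spike-in scaling and with DESeq2. LGALS3BP, a secreted glycoprotein, had 1.30 and 2.96 CPM with shEZH2 against 23.0 and 19.7 CPM in EV. With the guides LGALS3BP had 18.8 to 20.5 CPM against 35.7 and 38.6 CPM in sgEV. Here the effect of shEZH2 was the larger (-3.32 ± 0.25 and -0.92 ± 0.07, difference adjusted p = 5.5e-06). XAF1 (-0.64 and -1.12), GBP4 (-2.06 and -0.93), GBP2 (-2.42 and -1.23) and OAS2 (-1.31 and -1.45) were further members. Signalling genes in this class included the receptor tyrosine kinase FLT3 (-0.43 and -0.40), the kinases PIM1 (-0.49 and -0.38) and PIM2 (-0.32 and -0.67) and the phosphatase DUSP7 (-0.73 and -0.57), and 5 of 20 genes of STAT5 and MAPK output were lower in both (3 with DESeq2).

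Single genes outside these lists were among those with the largest fall in both. CCL5, a chemokine, had 4.28 and 4.85 CPM with shEZH2 against 15.5 and 15.7 CPM in EV, and 27 to 34.6 CPM with the guides against 129 and 129 CPM in sgEV. FHL1, a LIM domain protein, had 21.9 and 24.7 CPM with shEZH2 against 70.7 and 74.4 CPM in EV, and 9.99 to 14 CPM with the guides against 62.8 and 59.0 CPM in sgEV. Libraries of treated and control groups did not overlap for either gene, which the choice of these genes fixed. AXL, a receptor tyrosine kinase (-1.63 and -1.95), NCAM1, the adhesion molecule CD56 (-1.92 and -1.89), OCSTAMP, a membrane protein of cell fusion (-1.54 and -1.74), and SLCO4C1, an organic anion transporter (-1.93 and -1.34), followed. Levels in the 2 controls were themselves unlike for some of these genes. NCAM1 stood at 3.43 and 3.70 CPM in EV and at 23.6 and 23.2 CPM in sgEV. The tables were scaled separately and no test was made across them.

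The class higher in both held the monocyte and granulocyte gene LYZ among its members of largest effect. LYZ, lysozyme of monocytes and granulocytes, had 498 and 506 CPM with shEZH2, against 186 and 202 CPM in EV. With the guides LYZ had 3710, 3730, 3380 and 3490 CPM, against 159 and 158 CPM in sgEV. The guide effect was 3.13 larger on the log2 scale than the shEZH2 effect (1.37 ± 0.05 and 4.50 ± 0.05, difference adjusted p = 1.0e-13). F13A1, the coagulation factor XIII A chain of monocytes, had 20.1 and 17.8 CPM with shEZH2 against 7.30 and 5.75 CPM in EV, and 21.9 to 33.5 CPM with the guides against 3.82 and 2.92 CPM in sgEV. BST1, the surface enzyme CD157, rose by 1.47 ± 0.17 and 2.33 ± 0.16; its test of a difference was not passed without EV library 2, shEZH2 library 2 or sgEV library 1. SESN3, a sestrin of the stress response, rose by 1.78 ± 0.11 and 1.32 ± 0.12, and its effects did not pass the test of a difference (adjusted p = 0.16). SLC43A2, an amino acid transporter (1.46 and 1.31), CHST2, a sulfotransferase (1.71 and 1.20), SULT1B1, a cytosolic sulfotransferase (1.12 and 2.80), and ACSM3, a mitochondrial acyl-CoA synthetase (1.21 and 1.10), completed the 8 genes with the largest rise in both. The SULT1B1 call with shEZH2 was lost without shEZH2 library 1, and also with DESeq2 (adjusted p = 0.0503).

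Granule protein genes of early myeloid cells rose together: 8 of 14 tested were higher in both, beside 3.43% of all genes, and 4 of 14 with spike-in scaling. MS4A3, a membrane protein of granulocyte-monocyte progenitors, had 201 and 201 CPM with shEZH2 against 106 and 103 CPM in EV, and 441 to 541 CPM with the guides against 90.1 and 89.8 CPM in sgEV. SRGN, the granule proteoglycan serglycin, had 971 and 971 CPM with shEZH2 against 729 and 782 CPM in EV, and 5000 to 5940 CPM with the guides against 1160 and 1160 CPM in sgEV. The serine proteases PRTN3 (0.24 and 1.22), ELANE (0.22 and 1.04) and AZU1 (0.20 and 1.34) rose in both, as did the ribonucleases RNASE2 (0.28 and 1.60) and RNASE3 (0.38 and 1.49). By the test of the difference, the sgcMyc effect was the higher for 11 of the 14. MPO, myeloperoxidase, was not called in both (-0.51 and -0.33), and CST7 was lower in both (-0.32 and -1.89).

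All 13 protein-coding genes of the mitochondrial genome were higher in both, by 0.27 to 0.51 with shEZH2 and 0.30 to 0.57 with sgcMyc. MT-ND2, a complex I subunit, had 1860 and 1830 CPM with shEZH2 against 1320 and 1380 CPM in EV, and 1920 to 2150 CPM with the guides against 1520 and 1460 CPM in sgEV. Their share of all gene counts was 2.79 and 2.80% with shEZH2 against 2.18 and 2.22% in EV, and 3.14 to 3.44% with the guides against 2.47 and 2.41% in sgEV. The effects were alike in size, with a difference called for 1 of 13 genes, MT-CO1 (0.33 and 0.54). The count was 12 of 13 with spike-in scaling, and nuclear copies of these genes may take or give reads. Nuclear genes of the respiratory chain differed from this: 46 of 76 were higher with sgcMyc, beside 18.9% of all genes. Only 5 were higher with shEZH2, beside 13.5% of all genes, and 4 in both, beside 3.43%.

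Of 33 known p53 targets, 9 were higher in both and 4 were higher with shEZH2 and lower with sgcMyc. SESN1 had 28.5 and 28.0 CPM with shEZH2 against 13.9 and 12.1 CPM in EV, and 24.0 to 28.6 CPM with the guides against 19.1 and 19.1 CPM in sgEV. MDM2, the p53 ubiquitin ligase (0.42 and 0.25), RRM2B (0.65 and 0.17), TRIM22 (0.72 and 0.34) and RPS27L (0.57 and 0.42) were also higher in both. The 4 that parted were the death receptor TNFRSF10B (0.56 and -0.40), the BH3-only killer BBC3 (0.33 and -0.61), GADD45A (0.62 and -0.50) and CCNG1 (0.15 and -0.35). With DESeq2 the counts were 5 and 2. Among 14 BCL2 family members, 2 were higher in both, 1 lower in both and 1 higher with shEZH2 and lower with sgcMyc. The BH3-only gene BCL2L11 rose in both (0.55 and 0.63), while BMF fell in both. BMF had 28.1 and 27.5 CPM with shEZH2 against 35.9 and 38.8 CPM in EV. With the guides BMF had 71.9, 70.6, 68.0 and 65.0 CPM against 109 and 103 CPM in sgEV.

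**Figure D2:**
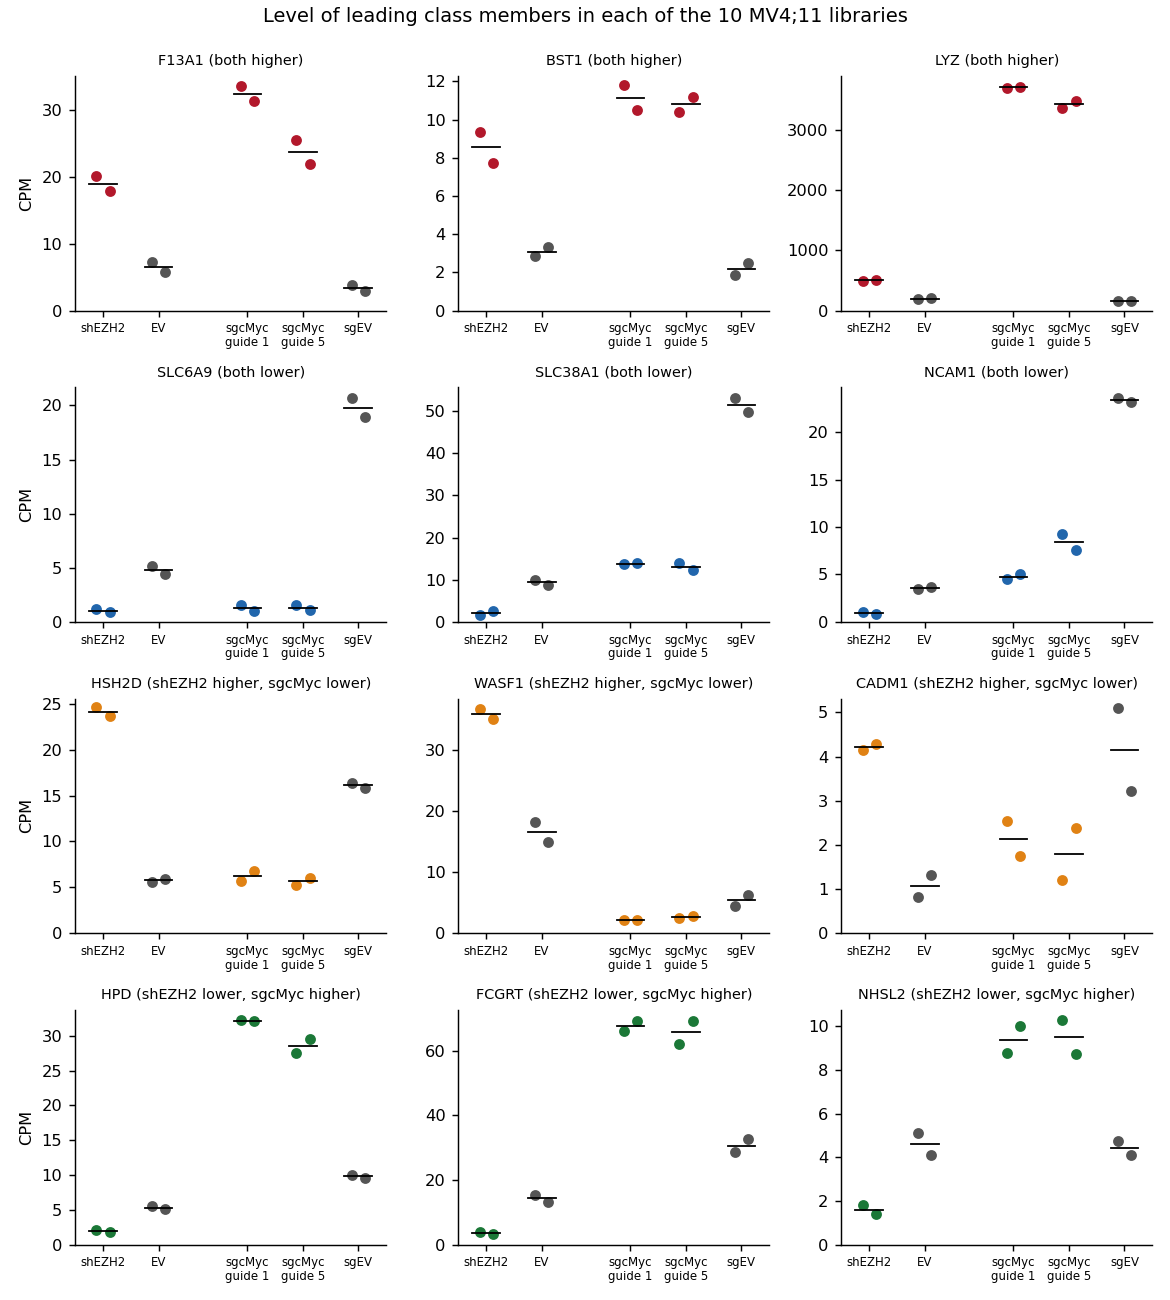
CPM (y axis, from 0) of 3 leading genes of each class in all 10 MV4;11 libraries; each point is a library, each short line the mean of 2, perturbed groups are coloured and controls grey. LYZ stands at 3380 to 3730 CPM with the guides and at 498 and 506 CPM with shEZH2, and WASF1 and HPD show the opposite-direction patterns.

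Cytosolic ribosomal proteins made up the largest listed group among the genes higher with shEZH2 and lower with sgcMyc. Of 79 tested, 43 were in that class and 0 in any other, beside 3.02% of all genes. The changes were small, with medians of 0.15 and -0.23. RPL5, a large subunit protein that also binds MDM2, had 1820 and 1860 CPM with shEZH2, against 1440 and 1550 CPM in EV. With the guides RPL5 had 1150, 1180, 1110 and 1240 CPM, against 1460 and 1480 CPM in sgEV. The groups did not overlap (0.30 ± 0.04 and -0.33 ± 0.05). The test of the difference was passed by 71 of the 79, all in this direction. The class count moved with single libraries and with scaling. It was 6 without shEZH2 library 2, 11 without shEZH2 library 1, 66 without EV library 2, 25 without sgEV library 1 and 17 without sgEV library 2. It was also 26 when all 10 libraries were fitted together and 11 with spike-in scaling (medians 0.10 and -0.12). Reads of these genes may be shared with processed pseudogenes.

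Translation factors pointed the same way in part. Of 35 initiation factors, 7 were higher and 4 lower with shEZH2, and 5 higher and 14 lower with sgcMyc. Over all genes tested in both, the shares were 13.5% and 14.4% with shEZH2 and 18.9% and 18.8% with sgcMyc. The count lower with sgcMyc stood furthest from its share. Of the 35 factors, 2 were lower in both, and 5 (14.3%) were in this class, beside 3.02% of all genes. Among the 5 were the eIF3 subunits EIF3E (0.19 and -0.32), EIF3F (0.28 and -0.15), EIF3H (0.22 and -0.30) and EIF3L (0.34 and -0.21). EIF4B, a helicase cofactor, had 1110 and 1100 CPM with shEZH2 against 972 and 985 CPM in EV, and 743 to 777 CPM with the guides against 1050 and 1050 CPM in sgEV. The count was 3 without either shEZH2 library, 8 without EV library 2 and 1 with spike-in scaling, where the list's median under sgcMyc changed sign (-0.09 and 0.02). The nucleolar protein NPM1 (0.24 and -0.27) and the RNA polymerase I subunit POLR1B (0.17 and -0.19) were among 5 of 60 MYC-activated genes in this class. The POLR1B calls did not hold with spike-in scaling or DESeq2, without EV library 2, or without any single shEZH2, sgEV or guide 1 library.

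Glycolytic genes were split over 3 classes, with 5 of 23 higher with shEZH2 and lower with sgcMyc, 3 lower in both and 2 higher in both. PDK1, a kinase that inhibits pyruvate dehydrogenase, had 61.3 and 54.8 CPM with shEZH2 against 33.7 and 36.0 CPM in EV. With the guides PDK1 had 30.9 to 37.5 CPM against 56.8 and 59.2 CPM in sgEV (0.74 ± 0.07 and -0.75 ± 0.06). PFKP, a phosphofructokinase (0.27 and -0.70), LDHB (0.27 and -0.32) and ENO2 (0.75 and -1.16) were like it. The lactate carrier SLC16A1 was lower in both (-0.51 and -0.61). The 5 became 3 without either shEZH2 library and 2 with spike-in scaling.

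The largest opposite changes of this kind belonged to single genes. HSH2D, a haematopoietic adaptor protein, had 24.6 and 23.7 CPM with shEZH2, against 5.55 and 5.95 CPM in EV. With the guides HSH2D had 5.25 to 6.81 CPM, against 16.4 and 15.8 CPM in sgEV (2.07 ± 0.11 and -1.44 ± 0.11). WASF1, an actin regulator, had 36.6 and 34.9 CPM with shEZH2 against 18.1 and 14.9 CPM in EV, and 2.14 to 2.88 CPM with the guides against 4.50 and 6.29 CPM in sgEV. CADM1, an adhesion molecule (1.98 and -1.09), RHOB, a small GTPase (1.07 and -1.66), KCNQ3, a potassium channel (1.45 and -1.01), MEX3A, an RNA-binding protein (1.28 and -0.93), and TUBA1A, an alpha tubulin (1.02 and -0.92), were further genes with large opposite changes. The CADM1 call with sgcMyc was lost without sgEV library 1. BATF3, a transcription factor of dendritic cells (1.05 ± 0.21 and -2.66 ± 0.30), and the interleukin-3 receptor IL3RA (0.61 and -0.44) were also members. With DESeq2 the shEZH2 calls of RHOB (adjusted p = 0.065) and BATF3 (adjusted p = 0.072) were lost.

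Monocyte and macrophage markers were mainly lower with shEZH2 and higher with sgcMyc where they were called in both. Of 30 tested, 15 were in that class, beside 3.61% of all genes, with 3 higher in both (LYZ, CCR2 and TLR2) and 3 lower in both (CD86, FCGR1A and FCER1G). The medians were -0.38 with shEZH2 and 0.57 with sgcMyc. The class held the phagocyte NADPH oxidase subunits CYBB (-2.26 and 1.08), CYBA (-0.21 and 0.45), NCF1 (-1.87 and 0.56) and NCF4 (-0.26 and 0.21). NCF1 has near-identical pseudogenes, so its value is uncertain. CYBB, the catalytic subunit, had 0.93 and 0.57 CPM with shEZH2, against 3.62 and 3.64 CPM in EV. With the guides CYBB had 10.5, 9.62, 12.8 and 13.0 CPM, against 5.32 and 5.47 CPM in sgEV. The integrin ITGAM or CD11b (-1.38 and 1.59), the scavenger protein CD68 (-0.52 and 1.32), the receptor TLR4 (-0.97 and 0.86) and MNDA (-0.65 and 3.76) moved likewise. Summed over the list, the markers came to 2120 and 2160 CPM with shEZH2 against 2140 and 2220 CPM in EV, and to 6790 to 7390 CPM with the guides against 2680 and 2700 CPM in sgEV. LYZ weighs heavily in that sum. The count was 11 to 17 under the alternatives other than a minimum change of 0.5 on the log2 scale, where it was 9, and the 11 came without shEZH2 library 1.

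Lysosomal genes divided evenly, with 9 of 34 higher in both and 9 lower with shEZH2 and higher with sgcMyc. CTSZ, a cathepsin, had 44.9 and 41.2 CPM with shEZH2 against 100 and 108 CPM in EV, and 177 to 210 CPM with the guides against 122 and 121 CPM in sgEV (-1.27 ± 0.06 and 0.70 ± 0.06). CTSB, another cathepsin, had 67.2 and 66.9 CPM with shEZH2 against 125 and 133 CPM in EV, and 234 to 269 CPM with the guides against 191 and 192 CPM in sgEV. The membrane protein LAMP2 (-0.92 and 0.41) and the regulator TFEB (-0.52 and 0.27) went with them. CST3, the cathepsin inhibitor cystatin C, went the other way with shEZH2, at 533 and 559 CPM against 302 and 320 CPM in EV, and 1630 to 1880 CPM with the guides against 551 and 543 CPM in sgEV. PSAP (0.16 and 1.03), GAA (0.55 and 0.69) and IDS (0.48 and 0.48) rose in both as well. The 9 higher in both became 5 without either shEZH2 library or with DESeq2, and 4 with spike-in scaling.

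Proliferation genes were also in this class. Of 52 mitosis genes, 6 (11.5%) were lower with shEZH2 and higher with sgcMyc, beside 3.61% of all genes. Another 3 were lower in both, beside 4.47% of all genes, although 29 were lower with shEZH2, beside 14.4%. CDC20, the activator of the anaphase-promoting complex, had 73.0 and 73.4 CPM with shEZH2 against 131 and 147 CPM in EV, and 88.6 to 96.3 CPM with the guides against 75.6 and 75.6 CPM in sgEV (-0.93 ± 0.06 and 0.29 ± 0.05). The cytokinesis protein ANLN (-0.59 and 0.37), BIRC5 (-0.43 and 0.25) and CDK1 (-0.26 and 0.18) did the same. The 6 became 3 without shEZH2 library 2 and with DESeq2, and 11 or 12 without a guide 5 library. Of 46 DNA replication genes, 6 (13%) were in this class, among them MCM10 (-0.25 and 0.30) and POLA2 (-0.22 and 0.43), and 2 were lower in both. None of these 6 held with DESeq2, and the count was 2 without shEZH2 library 1 or sgEV library 1 and 3 without sgEV library 2. The nucleotide enzymes TK1 (-0.40 and 0.46) and TYMS (-0.23 and 0.33) were also in this class.

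Single genes with the largest opposite changes of this kind follow. FCGRT, the neonatal Fc receptor, had 3.97 and 3.15 CPM with shEZH2, against 15.3 and 13.3 CPM in EV. With the guides FCGRT had 62.1 to 69.4 CPM, against 28.6 and 32.6 CPM in sgEV (-2.00 ± 0.15 and 1.13 ± 0.07). HPD, a tyrosine catabolic enzyme, had 2.11 and 1.76 CPM with shEZH2 against 5.49 and 5.09 CPM in EV, and 27.5 to 32.2 CPM with the guides against 10.0 and 9.59 CPM in sgEV. CFP, the complement regulator properdin, had 3.41 and 4.72 CPM with shEZH2 against 7.36 and 8.4 CPM in EV, and 68.4 to 90.5 CPM with the guides against 22.9 and 22.6 CPM in sgEV. GPR183, an oxysterol receptor (-1.49 and 1.07), SEMA6B, a semaphorin (-1.04 and 1.16), RNASE6, a ribonuclease of myeloid cells (-1.32 and 1.00), and NHSL2 (-1.53 and 1.09) were the others beside CYBB. MHC class II genes were mixed. HLA-DRA (0.86 and 1.52) and CD74 (0.16 and 0.46) were higher in both, and HLA-DRB1 (-1.65 and 0.56), which has close paralogs, was lower with shEZH2. With DESeq2 the shEZH2 calls of SEMA6B (adjusted p = 0.069), HLA-DRA (0.097) and CD74 (0.074) were lost.

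**Figure D3:**
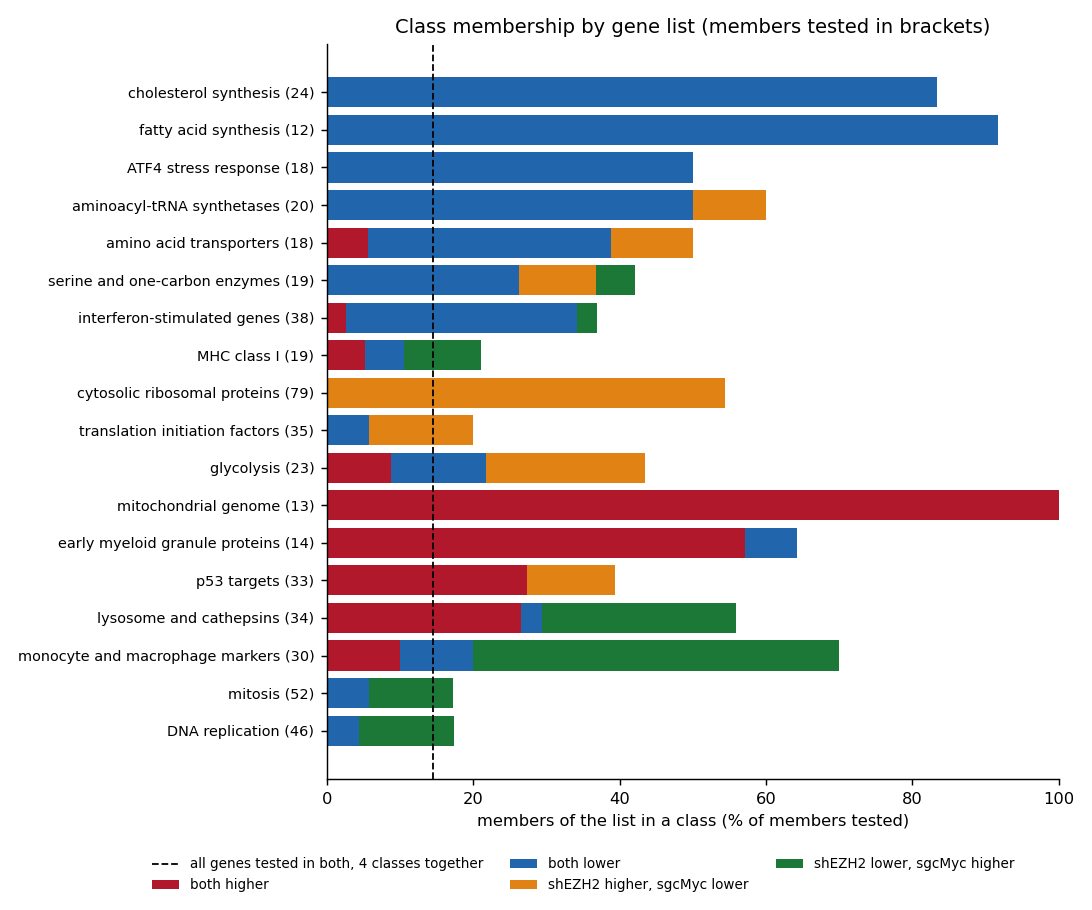
Share of the tested members of 18 gene lists in each class (x axis, % of members tested; number tested in brackets); the dashed line is the share of all genes tested in both that lie in any class. Cholesterol and fatty acid synthesis lie almost wholly in the class lower in both, the mitochondrial genome in the class higher in both, cytosolic ribosomal proteins in the class higher with shEZH2 and lower with sgcMyc, and 15 of 30 monocyte markers in its reverse.

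Lists named for MYC and for EZH2 complexes were spread over the classes or nearly absent from them, beside 1922 of 13230 genes in any class. Of 60 MYC-activated genes, 3 were higher in both, 2 lower in both, 5 higher with shEZH2 and lower with sgcMyc and 2 the reverse, with medians of 0.06 and -0.04. ODC1, the first enzyme of polyamine synthesis, had 405 and 416 CPM with shEZH2 against 283 and 292 CPM in EV, and 207 to 238 CPM with the guides against 179 and 187 CPM in sgEV. ODC1 was thus higher in both (0.51 ± 0.04 and 0.33 ± 0.05). CDK4, the G1 kinase, had 182 and 180 CPM with shEZH2 against 206 and 208 CPM in EV, and 127 to 148 CPM with the guides against 154 and 155 CPM in sgEV. Its fall was small (-0.19 ± 0.04 and -0.20 ± 0.05). Among 50 genes for making rRNA and assembling ribosomes, 17 were lower with sgcMyc, beside 18.8% of all genes. In the same list 8 were higher with shEZH2, which is near the 13.5% of all genes, and the median with shEZH2 was -0.0002. Both calls were made for 4 (8%), beside 3.02% of all genes. Of 11 genes of the MYC-MAX network 3 were in a class, among them the MYC antagonist MXD4, higher in both (0.56 and 0.27), and MXI1, lower in both (-0.22 and -0.34). Of 12 PRC2 genes without EZH2, only JARID2, which guides PRC2 to chromatin, was in a class: it had 98.2 and 87.5 CPM with shEZH2 against 56.0 and 47.5 CPM in EV, and 76.3 to 87.8 CPM with the guides against 72.0 and 76.1 CPM in sgEV. The JARID2 call with sgcMyc was lost with guide 5 alone (0.11, adjusted p = 0.22). It was also lost with DESeq2 (adjusted p = 0.15) and when all 10 libraries were fitted together (adjusted p = 0.064). With spike-in scaling the sgcMyc medians of MYC-activated (0.07) and ribosome assembly genes (0.01) were above 0, against -0.04 and -0.11 with the scaling used here.

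**Figure D4:**
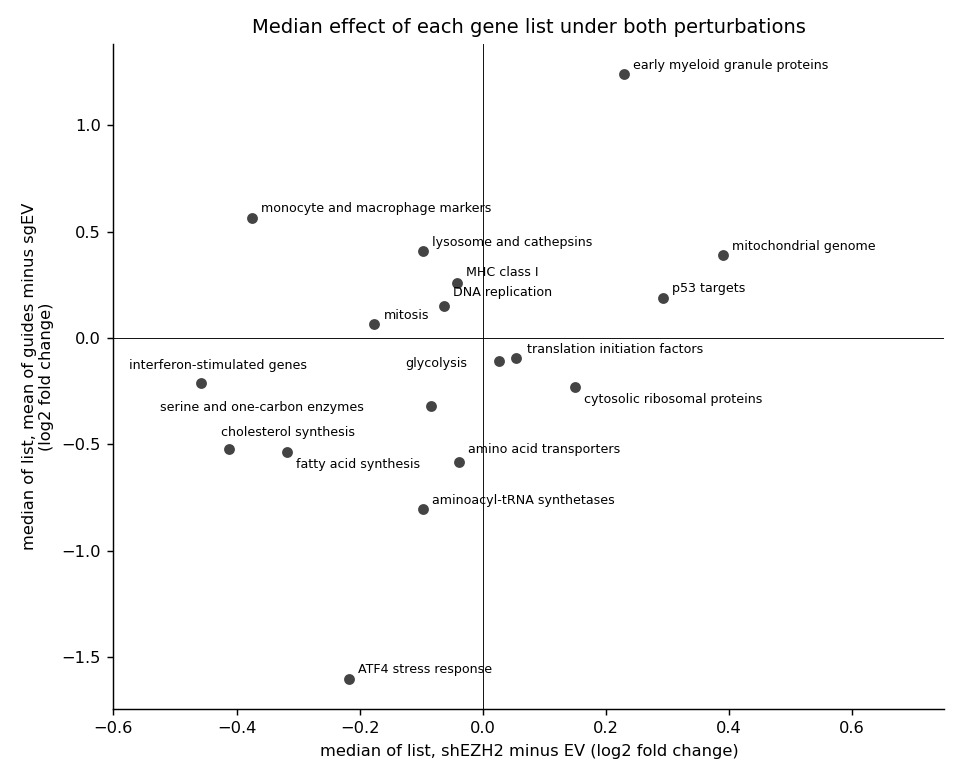
Median log2 fold change of the same 18 lists, with shEZH2 minus EV on the x axis and the mean of both guides minus sgEV on the y axis; each point is a list and the lines mark 0. Lists lower in both lie in the lower left, with the ATF4 response lowest at -1.60 under the guides, and monocyte markers lie in the upper left at -0.38 and 0.57.

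E-boxes, the DNA sites of MYC and MAX, were looked up in the promoters because MYC-activated genes fell into all 4 classes. The palindrome CACGTG occurred in 2548 of 35116 promoters (7.26%) and in 1322 of 13720 promoters of genes tested in both (9.64%). For MYC-activated genes it occurred in 28 of 66 promoters (42.4%, with an entry for 50 of 60 genes). By gene, 34% of MYC-activated genes with an entry held one wholly before the start, against 11.6% of genes tested in both. An entry existed for only 9491 of 13230 genes tested in both (71.7%) and for 74.2 to 79.7% of class members. Among genes with an entry, 12.9% of all tested in both held the palindrome. The share was 14.2% of those higher in both and 12.1% of those lower in both. It was 17.4% of those higher with shEZH2 and lower with sgcMyc, and 11.1% of the reverse. These shares were not tested. Examples with opposite behaviour follow, each with its E-box in capitals and 14 bases on each side: ODC1 at chr2:10448022-10448055 (- strand) and IPO4, an importin, at chr14:24188826-24188859 (- strand), both higher in both comparisons; CDK4, the nearest of 3 in its promoter, at chr12:57752392-57752425 (- strand), lower in both; and HPD at chr12:121888645-121888678 (- strand), lower with shEZH2 and higher with sgcMyc.
ODC1: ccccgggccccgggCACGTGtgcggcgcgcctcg
IPO4: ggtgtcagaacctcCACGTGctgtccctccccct
CDK4: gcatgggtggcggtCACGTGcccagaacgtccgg
HPD: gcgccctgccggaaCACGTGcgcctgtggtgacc
These sites lie 29, 29, 101 and 53 bases before the start. IPO4 changed by 0.24 and 0.13.

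Both guides gave the classes. With guide 1 alone 437, 533, 342 and 412 genes were in the classes higher in both, lower in both, higher with shEZH2 and lower with sgcMyc, and the reverse, and with guide 5 alone 387, 530, 345 and 403. Called with each guide separately were 357 of 454, 464 of 592, 279 of 399 and 325 of 477. A difference between guides was called for 16, 6, 4 and 9 class members. The guides share the sgEV libraries, so these counts are not independent. With guide 5 alone the sgcMyc calls of CDK4 (adjusted p = 0.089), POLR1B (0.060) and JARID2 were lost. Some class members of small effect rested on single libraries. Without either shEZH2 library the shEZH2 calls of CDK4, EIF3E, EIF4B and CD74 were lost, without shEZH2 library 1 that of BBC3, which was also lost without EV library 1, and without shEZH2 library 2 those of HLA-DRA, MXI1 and MCM10. Without either sgEV library the sgcMyc calls of CDK4 and JARID2 were lost, that of JARID2 also without either guide 1 library, and without sgEV library 1 those of MXD4 and MCM10.

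EOL-1 gave a measure that the classes did not use, with other cells, an sgRNA instead of a hairpin and its own controls. Of the genes tested in both MV4;11 comparisons, 12421 were tested in EOL-1, where 15.0% were called higher and 12.6% lower with sgEZH2 than with sgEV. Of 433 genes higher in both MV4;11 comparisons, 186 (43.0%) were higher and 38 (8.78%) lower in EOL-1. Of 459 genes lower with shEZH2 and higher with sgcMyc, 158 (34.4%) were higher and 54 (11.8%) lower. In that class the direction in EOL-1 was more often that of the MYC guides than that of shEZH2. Genes lower in both gave 107 higher (19.9%) and 129 lower (24.0%) of 537, and genes higher with shEZH2 and lower with sgcMyc gave 83 (21.4%) and 55 (14.2%) of 388. Class members were more abundant than other genes, with median levels of 56.9, 40.2, 63.7 and 57.9 CPM in the order of the classes against 25.5 CPM over all genes, and the part of this in their share of calls was not tested. Some counts rested on single libraries. Without sgEV library 1 of EOL-1, 19 genes higher in both and 35 lower with shEZH2 and higher with sgcMyc were lower in EOL-1, and 47 higher with shEZH2 and lower with sgcMyc were higher. Without sgEV library 2 of EOL-1, these counts were 22, 35 and 46, with 81 genes lower in both and 36 higher with shEZH2 and lower with sgcMyc called lower.

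The groups of genes differed in EOL-1. Of the 30 monocyte markers, 26 were higher with sgEZH2 in EOL-1 and 1 lower, against 5 higher and 19 lower with shEZH2 in MV4;11 and 22 higher and 3 lower with sgcMyc. LYZ rose in all 3 (3.05 in EOL-1). Of 24 cholesterol synthesis genes, 5 were higher and 4 lower in EOL-1, with a median of 0.02. Aminoacyl-tRNA synthetases were lower in 11 of 20 cases and higher in 1, by a median of -0.10. Cytosolic ribosomal proteins were higher in 26 of 79 and lower in none, with a median of 0.08. Mitochondrially encoded genes were higher in 8 of 13, and p53 targets in 18 of 33.

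**Figure D5:**
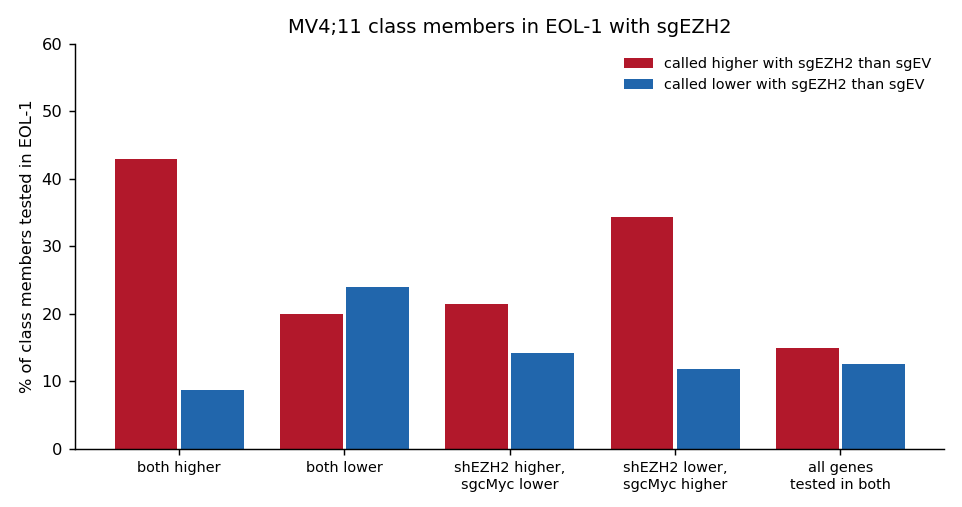
Share of class members called higher or lower with sgEZH2 than with sgEV in EOL-1 (y axis, % of class members tested there), beside all genes tested in both MV4;11 comparisons. Genes higher in both reach 43.0% higher, and genes lower with shEZH2 and higher with sgcMyc 34.4% higher, above the 15.0% of all genes.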

How the data were processed

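RNA-seq libraries were grouped by their titles, and table columns, which carry shorter names (sh5, sgM1, sgM5), were matched to samples by inference from target, guide and replicate number. The raw columns hold expected counts, which are the authors' deposited estimates per gene and can be fractional. RSEM, DESeq and hg19 are named, per the submitters' processing notes. The normalised columns are log2 values made by the authors, per the file headers, and served in an alternative. Strand use, annotation, aligner and versions were not given in the sources used here; reads of overlapping or antisense genes may therefore be mixed. Another 5 value columns of the EOL-1 table were not used.

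Counts were rounded and tested within each table with edgeR 4.0.16 (filterByExpr, TMM, quasi-likelihood with robust empirical Bayes, R 4.3.3), with Benjamini-Hochberg adjustment over all genes tested and a threshold of 0.05. The biological coefficient of variation was 0.0352 for shEZH2 and 0.0422 for sgcMyc. The difference of effects was a contrast in 1 fit of rows in both tables. Standard errors were derived from F and the log2 fold change. Alternatives used DESeq2 1.42.0 and limma 3.58.1. The 56 spike-in rows stayed out of library sizes and tests, and 18 rows with a date for a symbol were tested and not named. Scripts were tested on simulated data. Replicate numbers were not used to pair samples. With 2 numbers only, deviations correlated at -0.081 to 0.29 between groups, so some structure shared by replicate number may remain.

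The classes, 45 gene lists and tests were chosen with earlier results of these data known. Named genes are EZH2 and MYC, the 8 with the largest smaller effect per class (higher group at 50 normalised counts or more, libraries separated) and up to 4 class members per list with the smallest larger p. Some genes under this rule are not reported here. Further list members given with effects only, and DDIT4, were chosen after their values were seen. Promoters are from RefSeq GRCh38.p14, matched by symbol or synonym, and are not on the build of the tables; the sterol and ATF4 elements were chosen after the data were seen.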

Additional observations from a re-analysis of the deposited data

Results flagged for a closer look

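Of 31 reported genes with the largest changes in their class, 25 were tested in EOL-1, and for 9 of these every library with EZH2 targeted moved one way in MV4;11 and the other way in EOL-1. In MV4;11 the separation of libraries was a condition for choosing these genes, so only the EOL-1 part was free to vary. The same count was not made over all genes, so the 9 of 25 has no background share. The difference between the lines was not tested. Among genes lower with shEZH2 and higher with sgcMyc, the log2 fold change in EOL-1 was 2.82 for CFP (adjusted p = 4.0e-10), 1.47 for FCGRT (4.4e-09), 1.21 for SEMA6B (2.1e-07), 0.82 for HPD (3.2e-06), 0.68 for RNASE6 (7.7e-09), 0.48 for GPR183 (1.4e-07) and 0.11 for CYBB (0.045), against -0.95, -2.00, -1.04, -1.45, -1.32, -1.49 and -2.26 with shEZH2 in MV4;11. Among genes higher with shEZH2 and lower with sgcMyc it missed the threshold for WASF1 (-0.18, adjusted p = 0.063) and TUBA1A (-0.09, adjusted p = 0.13), against 1.11 and 1.02 in MV4;11.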

How the results depend on the processing

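No class member moved to another class and no named gene's called effect reversed under the alternatives run, while class sizes did move. Under spike-in scaling, sgcMyc medians changed sign for translation initiation factors (-0.094 to 0.02), glycolysis (-0.11 to 0.0051) and MYC-activated genes (-0.04 to 0.07). Those of the MYC-MAX network (-0.107 to 0.0069) and ribosome assembly (-0.111 to 0.0069) changed sign too. The shEZH2 median of glycolysis went from 0.03 to -0.02. Some list medians not printed here also changed sign, and those lay within 0.05 of 0 before. Class sizes are given in the order higher in both, lower in both, higher with shEZH2 and lower with sgcMyc, and the reverse. In the main fit they were 454, 592, 399 and 477. They were 259, 300, 84 and 401 under spike-in scaling and 226, 278, 199 and 192 with DESeq2. When the larger p was adjusted they were 329, 435, 260 and 305. With a minimum of 0.5 on the log2 scale in both they were 117, 194, 54 and 58. Leaving out a library gave 320 to 537, 417 to 649, 229 to 494 and 264 to 558. The lowest counts of the opposite classes came without an sgEV library (229 and 234; 264 and 287) or an shEZH2 library (236 and 258; 305). Genes higher with shEZH2 numbered 767 with spike-in scaling, 886 with DESeq2 and 1140 to 2152 without a library, and genes lower 930 with DESeq2 and 1258 to 2048 without a library. Genes higher with sgcMyc numbered 1589 with DESeq2 and 1377 to 3004 without a library, and genes lower 1072 with spike-in scaling, 1526 with DESeq2 and 1436 to 2947 without a library. The difference of effects gave 831 higher with spike-in scaling, and 1149 higher and 1444 lower with DESeq2. Spike-in scaling moved the median of all genes to -0.046 with shEZH2 and 0.113 with sgcMyc. In EOL-1, leaving out a library gave 19 to 41 genes higher in both and 81 to 136 lower in both called lower, 46 to 106 and 36 to 77 of those higher with shEZH2 and lower with sgcMyc called higher and lower, and 35 to 61 of the reverse called lower. The cause of these shifts was not tested. A replicate block gave classes of 593, 712, 569 and 616 and differences of 2350 and 2653, within 1.5 times of the fit without it. E-box shares of classes were not recomputed under the alternatives. With 2 libraries a group, small effects rest on few degrees of freedom, and lone libraries were assumed to vary like the others.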
